A study of Homo sapiens with 29 samples.

Results

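Interferon-stimulated genes and genes of HLA class I antigen presentation were examined in EndoC-βH1, a human line of insulin-secreting pancreatic β cells. A list of 47 genes was taken, 12 of class I presentation and 35 interferon-stimulated, and a gene was kept if its row of the deposited table averaged at least 0.5 counts per 1 M counts (CPM) over the 29 libraries. That left 32 genes, 8 of antigen presentation and 24 interferon-stimulated, out of 66025 rows in all. The 32 genes also averaged at least 0.5 CPM without the 3 WT libraries of batch 2. Just inside the threshold stood IFIT2, which averaged 0.673 CPM, and just outside it HLA-C, which averaged 0.481 CPM.

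All cells were kept for 10 days in medium that HEK293 cells (from human embryonic kidney) had conditioned, and the 3 groups differ in what the HEK293 cells overexpressed stably. The MUT group (10 libraries) had medium from cells with mutant CEL, the WT group (10 libraries) from cells with wild-type CEL and the EV group (9 libraries) from cells with an empty vector. CEL is the gene of carboxyl ester lipase, which the exocrine pancreas secretes to digest fat and which is mutated in the inherited diabetes MODY8, and the mutation used is not named in the labels. The EndoC-βH1 cells themselves were the same line in all groups. Polyadenylated RNA was sequenced. The libraries are labelled as 3 batches, with 4 MUT, 4 WT and 3 EV libraries in batch 1 and 3 of each in batches 2 and 3. The batch is known only as a number, so the step at which batches were apart is not known here. Each library held between 26.2 and 40.2 M estimated counts. Separate cultures are not stated for libraries of 1 batch and medium, and p-values therefore cover a spread that may be technical. Each batch held 1 set of libraries per medium, so an effect of a medium within a batch and any other difference between those sets cannot be told apart.

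Type I and III interferons act through receptors whose kinases JAK1 and TYK2 phosphorylate STAT2 among other transducers. STAT2 joins IRF9 in a complex that binds interferon-stimulated response elements in the promoters of antiviral genes such as MX1, IFIT1 and OAS1. HLA class I molecules show peptides, cut by the proteasome and carried into the endoplasmic reticulum by TAP1 and TAP2, on the cell surface with the light chain B2M, and interferons raise the genes of this pathway too. In type 1 diabetes, β cells with raised HLA class I are a known feature of inflamed islets.

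Promoter sequences are shown because a response element is the feature that the 2 gene groups have in common by textbook knowledge. The core GAAANNGAAA was searched on both strands of RefSeq promoter windows (GRCh38.p14, 250 bases before to 50 after a gene's start), and overlapping matches were counted apart. Of the 47 genes, 38 had a window and 27 of these held the core, where 4.38% of all 27305 genes with a window did (3.57% of all 35116 windows counted singly). Among the 32 genes kept, 6 of 7 antigen presentation genes with a window and 14 of 21 interferon-stimulated genes with a window held it. Where a gene had several windows the one with most matches was used, and a match is a description of letters, not of a bound site. Below, 80 bases are given for genes whose levels are described next, in lower case with the core in capitals, on the gene's own strand, where TTTC is the other strand's GAAA.
IFI6 (chr1:27672273-27672352, minus strand): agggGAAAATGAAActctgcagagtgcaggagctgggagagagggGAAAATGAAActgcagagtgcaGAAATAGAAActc
ISG15 (chr1:1013352-1013431, plus strand): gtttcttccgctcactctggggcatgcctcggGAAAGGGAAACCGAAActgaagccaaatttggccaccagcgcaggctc
DDX60 (chr4:168318779-168318858, minus strand): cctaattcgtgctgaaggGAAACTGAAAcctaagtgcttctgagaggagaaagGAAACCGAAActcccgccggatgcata
IFIT1 (chr10:89392478-89392557, plus strand): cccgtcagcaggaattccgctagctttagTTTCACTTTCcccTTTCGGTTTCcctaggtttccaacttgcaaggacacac
B2M (chr15:44711341-44711420, plus strand): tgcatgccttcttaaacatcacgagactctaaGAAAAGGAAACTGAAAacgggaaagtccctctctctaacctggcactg
TAP1 (chr6:32853791-32853870, minus strand): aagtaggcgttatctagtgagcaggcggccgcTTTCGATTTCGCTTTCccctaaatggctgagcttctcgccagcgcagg
SAMD9 (chr7:93118071-93118150, minus strand): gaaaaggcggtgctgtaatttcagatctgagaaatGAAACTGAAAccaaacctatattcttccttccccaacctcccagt
IFI6 held 3 copies, and in ISG15, B2M and TAP1 a pair of copies overlapped. SAMD9 is shown as a gene with the core whose level did not pass the test between any media. The core was in 16 of the 23 windows of genes that were lower in MUT than in WT cells of batch 2 and in 4 of the 5 windows of the others.

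Before the media are compared, batch 2 has to be set apart. In edgeR's quasi-likelihood test with Benjamini-Hochberg adjustment over all genes and a threshold of 0.05, with each batch fitted alone, batch 2 differed between media in 47.8% of all 20575 genes tested for MUT against EV, 33.1% for MUT against WT and 38.9% for WT against EV. In batch 1 the shares were 1.4%, 0.277% and 0.0143% for the same 3 comparisons, and in batch 3 they were 0.049%, 1.22% and 0.00981%. The interaction of medium and batch was called for 49.2% of 21259 genes. Of the 32 genes, 0 were called in batch 1 or batch 3 for any pair of media. At an unadjusted p under 0.05 there were 9, 6 and 1 in batch 1 and 6, 6 and 2 in batch 3 (MUT against EV, MUT against WT, WT against EV), and DESeq2 called 1, 0 and 0 in batch 1 and 1, 2 and 0 in batch 3. Results on the 32 genes are set beside these shares. The genes were chosen with earlier results of these data known, so such a comparison is a description and not a test. β-cell markers were present, with INS, which encodes insulin, between 8565 and 19528 CPM over the 29 libraries, but IAPP ran from 5.26 to 188 CPM. Of 10 such markers, 9 differed between batches in EV cells, where 68.3% of all genes did (edgeR). Their highest log2 difference from batch 1 in EV cells was 3.71 in batch 2 and 4.64 in batch 3. Of 7 leukocyte markers 5 stayed at or under 0.220 CPM in every library, among them the pan-leukocyte PTPRC at most at 0.135 CPM. The others were CD14, from 0.708 to 2.15 CPM, and CD68, from 28.7 to 134 CPM. The endothelial PECAM1 was at most at 0.211 CPM.

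In batch 2, B2M, TAP1, PSMB8, NLRC5 and HLA-B were higher in WT cells than in MUT and in EV cells. PSMB10 was highest in EV cells, TAP2 and TAPBP did not pass the test, and no antigen presentation gene passed it in batch 1 or batch 3. In batches 1 and 3 the median log2 fold changes of the 8 genes lay between -0.22 (MUT against EV, batch 1) and 0.11 (MUT against WT, batch 3). In batch 2, 0 genes were higher and 6 of 8 lower in MUT than in WT cells, where 16.8% of all genes were higher and 16.4% lower. Against EV cells, 5 of 8 were higher and 1 lower in WT cells, where 19.6% of all genes were higher and 19.3% lower. Between MUT and EV cells 1 was higher and 2 were lower, where 24.1% of all genes were higher and 23.8% lower. The median log2 fold change of the 8 genes in batch 2 was -0.93 for MUT against WT, 0.97 for WT against EV and -0.30 for MUT against EV, with medians over all genes of 0.0085, -0.0068 and -0.0013 in the same order. These comparisons share libraries, so they are not separate lines of evidence. In bulk RNA, more cells with a gene and more of its RNA per cell cannot be told apart.

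B2M, the light chain of all class I molecules, had 726, 696 and 729 CPM in MUT libraries of batch 2, 1385, 1458 and 1402 CPM in WT libraries and 564, 500 and 579 CPM in EV libraries. The 3 groups did not overlap, with WT highest, MUT between and EV lowest. In batches 1 and 3 all media lay between 418 and 537 CPM and overlapped. The log2 fold change in batch 2 was -0.97 ± 0.05 (SE) for MUT against WT (edgeR adjusted p = 1.32e-10), 1.37 ± 0.05 for WT against EV (edgeR adjusted p = 1.24e-12) and 0.39 ± 0.05 for MUT against EV (edgeR adjusted p = 2.89e-06). B2M was the 1 antigen presentation gene higher in MUT than in EV cells by the test.

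TAP1, a subunit of the peptide transporter, had 9.53, 6.94 and 8.44 CPM in MUT libraries of batch 2, 26.3, 23.3 and 19.8 CPM in WT libraries and 7.74, 7.33 and 6.29 CPM in EV libraries. WT libraries were all higher than the others, and MUT and EV libraries overlapped. The fold changes were -1.47 ± 0.13 for MUT against WT (log2 ± SE, edgeR adjusted p = 1.34e-05) and 1.70 ± 0.14 for WT against EV (edgeR adjusted p = 3.36e-06). In batches 1 and 3 the 20 TAP1 values lay between 1.85 and 4.34 CPM, under every library of batch 2. TAP2, the other subunit, ran from 0.406 to 14.4 CPM over the 29 libraries with large spread within groups, and TAPBP, which links TAP to class I molecules, ran from 1.99 to 5.65 CPM. Neither gene passed the test in batch 2.

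PSMB8, a catalytic subunit of the immunoproteasome, had 2.51, 4.06 and 2.83 CPM in MUT libraries of batch 2, 14.3, 11.3 and 8.07 CPM in WT libraries and 3.38, 4.58 and 4.28 CPM in EV libraries. WT libraries were the highest without overlap, at -1.83 ± 0.26 for MUT against WT (log2 ± SE, edgeR adjusted p = 0.00122). In batch 1 PSMB8 had 1.55, 1.51, 1.65 and 1.89 CPM in MUT, 1.72, 3.19, 5.75 and 4.64 CPM in WT and 5.01, 3.36 and 2.28 CPM in EV libraries. MUT libraries there lay under all EV libraries and overlapped WT, without passing the test, and in batch 3 the media overlapped. PSMB10, another such subunit, had 5.48, 6.20 and 6.37 CPM in MUT libraries, 11.2, 9.87 and 11.1 CPM in WT libraries and 11.8, 15.3 and 12.5 CPM in EV libraries of batch 2. Here MUT cells were the low group and EV the highest: the log2 fold change was -0.83 ± 0.10 for MUT against WT (edgeR adjusted p = 7.88e-06) and -1.13 ± 0.10 for MUT against EV (edgeR adjusted p = 7.7e-08). PSMB10 was also lower in WT than in EV cells by the test, at -0.30 ± 0.10 (log2 ± SE, edgeR adjusted p = 0.0191), a call that was lost without EV library 2 (edgeR adjusted p = 0.126) or without WT library 2 (edgeR adjusted p = 0.0956).

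NLRC5, the transactivator of class I genes, had 3.67, 4.08 and 4.10 CPM in MUT libraries of batch 2, 7.56, 6.71 and 7.83 CPM in WT libraries and 4.78, 5.25 and 4.89 CPM in EV libraries. The groups did not overlap, with MUT lowest and WT highest. The log2 fold changes in batch 2 were -0.89 ± 0.10 for MUT against WT (edgeR adjusted p = 2.66e-06), 0.56 ± 0.10 for WT against EV (edgeR adjusted p = 0.000182) and -0.33 ± 0.10 for MUT against EV (edgeR adjusted p = 0.0129), the last lost without MUT library 1 (edgeR adjusted p = 0.0583) and with DESeq2 (adjusted p = 0.0597). NLRC5 was also the 1 gene of the 32 called over all batches, described below.

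HLA-B, a class I heavy chain, had 0.408, 0.583 and 0.607 CPM in MUT libraries of batch 2, 2.47, 2.64 and 8.99 CPM in WT libraries and 1.48, 0.580 and 0.583 CPM in EV libraries. WT libraries were the highest, and 1 of them stood far above the other two. The log2 fold change was -3.11 ± 0.72 for MUT against WT (edgeR adjusted p = 0.0178) and 2.42 ± 0.68 for WT against EV (edgeR adjusted p = 0.0313). Without that WT library they were -2.24 (edgeR adjusted p = 0.00058) and 1.54 (edgeR adjusted p = 0.00343). The MUT against WT call was lost when any 1 MUT library was left out (edgeR adjusted p from 0.0539 to 0.0663), and the WT against EV call was lost without EV library 2 or 3 or any 1 MUT library (edgeR adjusted p from 0.0515 to 0.106). The WT against EV call was also lost with no filter on low counts (edgeR adjusted p = 0.0599) and with a block of replicate numbers (edgeR adjusted p = 0.0666). The values of genes in the MHC region of chromosome 6 have a limit of their own. It holds 9 of the 47 genes and 5 of those kept: HLA-B, TAP1, TAP2, TAPBP and PSMB8. The limit therefore also covers the levels and tests of TAP1, TAP2, TAPBP and PSMB8 above. The values of HLA genes come from the primary-assembly row, and 6656 rows of the table, which hold 2.69% of the counts, have no symbol in the tables used. Reads that the authors' counting gave to copies on alternative sequences are missing from the rows used, and the part this plays was not tested.

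Among antigen presentation genes under the threshold, HLA-C averaged 0.607 CPM in MUT, 1.57 CPM in WT and 0.404 CPM in EV libraries of batch 2. PSMB9, the third immunoproteasome subunit, averaged 0.227 CPM in MUT, 0.993 CPM in WT and 0.392 CPM in EV libraries there. HLA-E and HLA-F were listed at 0 in 22 and 21 of the 29 libraries. HLA-C, PSMB9, HLA-E and HLA-F also lie in the MHC region, so the limit above covers their levels. A 0 there need not mean that the gene was silent. These are levels without a test.

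**Figure D1:**
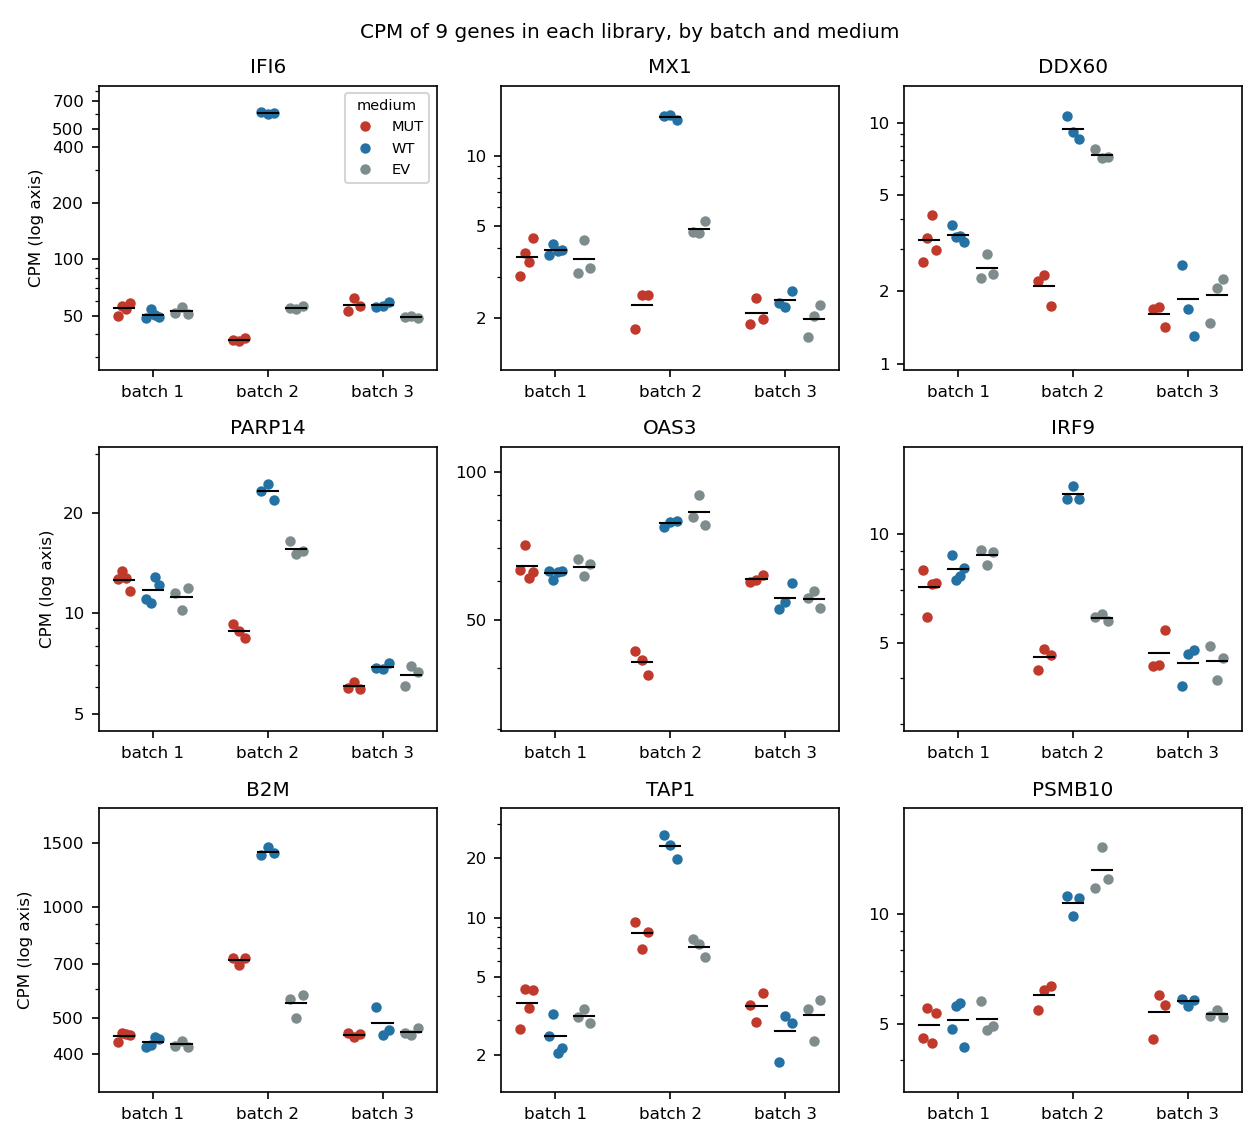
CPM on a log axis in each library (points) with group means (lines) for 6 interferon-stimulated genes and 3 antigen presentation genes, by batch, with MUT left of WT left of EV. In batch 2 the WT libraries of IFI6 sit between 602 and 613 CPM while its MUT libraries sit between 36.7 and 38.1 CPM, and in batches 1 and 3 the media lie close together.

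Interferon-stimulated genes also passed the edgeR test between media in batch 2 alone, and 2 patterns are described. Some genes were high in WT cells, led by IFI6 and MX1, which were also lower in MUT than in EV cells. Others were low in MUT cells with WT close to EV, such as OAS3 and RSAD2. The patterns shade into each other (DDX60) and do not cover all genes: IFIT1 rose in MUT over EV cells, and IFI35 was highest in EV cells. In batch 2, 0 of 24 were higher and 20 lower in MUT than in WT cells, where 16.8% of all genes were higher and 16.4% lower. Against EV cells, 2 were higher and 17 lower in MUT cells, where 24.1% of all genes were higher and 23.8% lower. In WT cells 13 were higher and 1 lower than in EV cells, where 19.6% of all genes were higher and 19.3% lower. The median log2 fold changes of the 24 genes were -0.92 for MUT against WT, 0.31 for WT against EV and -0.60 for MUT against EV, with medians over all genes of 0.0085, -0.0068 and -0.0013 in the same order. In batches 1 and 3 no gene passed the test in any of the 3 comparisons, and the medians of the 24 genes lay between -0.012 and 0.042.

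IFI6, a mitochondrial and endoplasmic reticulum protein that limits cell death and viral replication, moved most. It had 37.1, 36.7 and 38.1 CPM in MUT libraries of batch 2, 613, 602 and 603 CPM in WT libraries and 55.0, 54.4 and 56.5 CPM in EV libraries. The WT libraries stood about 16.2 times over MUT and 11.0 times over EV in group means, and the 3 groups did not overlap. In batches 1 and 3 its 20 values were between 48.4 and 62.3 CPM, in all 3 media. The log2 fold change in batch 2 was -4.02 ± 0.04 (SE) for MUT against WT (edgeR adjusted p = 1.07e-20), 3.45 ± 0.04 for WT against EV (edgeR adjusted p = 7.74e-20) and -0.56 ± 0.04 for MUT against EV (edgeR adjusted p = 4.07e-09).

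MX1, a GTPase that blocks viruses such as influenza, had 1.81, 2.52 and 2.53 CPM in MUT libraries of batch 2, 14.9, 14.9 and 14.3 CPM in WT libraries and 4.69, 4.64 and 5.22 CPM in EV libraries. The groups were apart, with WT highest and MUT lowest. The log2 fold change was -2.67 ± 0.11 for MUT against WT (edgeR adjusted p = 1.86e-11), 1.59 ± 0.10 for WT against EV (edgeR adjusted p = 2.23e-09) and -1.08 ± 0.12 for MUT against EV (edgeR adjusted p = 8.13e-07). IRF9, the DNA-binding part of the complex formed with STAT2, had 4.22, 4.82 and 4.65 CPM in MUT libraries, 12.5, 13.6 and 12.5 CPM in WT libraries and 5.90, 6.00 and 5.76 CPM in EV libraries of batch 2. Its order was the same, at -1.49 ± 0.08 for MUT against WT (log2 ± SE, edgeR adjusted p = 7.37e-10). IRF9 shares its values with 1 other row of the table, so its level may be split between copies.

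DDX60, a helicase that helps sense viral RNA, had 2.21, 2.33 and 1.74 CPM in MUT libraries of batch 2, 10.7, 9.14 and 8.57 CPM in WT libraries and 7.77, 7.16 and 7.18 CPM in EV libraries. Its MUT libraries were lowest without overlap, at -2.17 ± 0.12 against WT (log2 ± SE, edgeR adjusted p = 5.63e-10) and -1.81 ± 0.12 against EV (edgeR adjusted p = 2.48e-09), the lowest log2 fold change of the 32 genes between MUT and EV cells. PARP14, an ADP-ribosyltransferase induced by interferon, had 9.29, 8.83 and 8.44 CPM in MUT libraries, 23.2, 24.4 and 21.8 CPM in WT libraries and 16.4, 15.0 and 15.3 CPM in EV libraries of batch 2. The order was that of MX1, at -1.38 ± 0.07 for MUT against WT (log2 ± SE, edgeR adjusted p = 1.31e-10). OAS1, which makes the 2-5A signal that activates RNase L, had 11.0, 10.9 and 11.6 CPM in MUT libraries, 29.6, 27.5 and 26.5 CPM in WT libraries and 19.2, 20.1 and 18.7 CPM in EV libraries of batch 2. Its log2 fold change was -1.31 ± 0.06 for MUT against WT (edgeR adjusted p = 8.95e-11), and the groups did not overlap.

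The second pattern was that of OAS3, a further 2-5A synthetase, which had 43.3, 41.5 and 38.7 CPM in MUT libraries of batch 2, 77.3, 79.1 and 79.7 CPM in WT libraries and 81.3, 90.0 and 78.2 CPM in EV libraries. MUT libraries were the low group, and WT and EV libraries overlapped. The log2 fold change was -0.93 ± 0.05 for MUT against WT (edgeR adjusted p = 1.12e-09) and -1.01 ± 0.05 for MUT against EV (edgeR adjusted p = 1.82e-10), while WT against EV was -0.08 ± 0.05 (edgeR adjusted p = 0.24). RSAD2, which encodes the antiviral enzyme viperin, had 4.84, 4.53 and 5.46 CPM in MUT libraries, 9.36, 10.3 and 10.0 CPM in WT libraries and 10.6, 9.10 and 9.74 CPM in EV libraries of batch 2. HERC6, a ubiquitin ligase of the interferon response, stood at 11.9, 11.8 and 10.3 CPM in MUT, 19.1, 17.3 and 17.6 CPM in WT and 17.6, 18.3 and 19.0 CPM in EV libraries. In both genes the MUT libraries were lowest and the other two media overlapped.

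IFIT1, an RNA-binding antiviral protein, had 2.07, 2.33 and 2.07 CPM in MUT libraries of batch 2, 3.74, 3.37 and 3.38 CPM in WT libraries and 1.25, 1.36 and 1.5 CPM in EV libraries. With B2M and USP18 it was 1 of the 3 genes higher in MUT than in EV cells by the test. Its log2 fold change was 0.66 ± 0.14 (SE, edgeR adjusted p = 0.000976). USP18, a brake on the interferon receptor, rose by 0.14 ± 0.06 (log2 ± SE, edgeR adjusted p = 0.044). That USP18 call was lost without any 1 MUT library, without EV library 1 or 2 or without WT library 2 (edgeR adjusted p from 0.0550 to 0.162), and USP18 has a near-identical copy, so its counts are uncertain. It was lost as well with scaling by total library size, with low counts left unfiltered or filtered more strictly, and from 1 fit of all 29 libraries (edgeR adjusted p = 0.102, 0.101, 0.0536 and 0.137), and DESeq2 did not call it (adjusted p = 0.0946). ISG15, a ubiquitin-like modifier whose promoter window holds overlapping cores, had 1.19, 1.19 and 1.14 CPM in MUT libraries, 2.35, 2.84 and 2.37 CPM in WT libraries and 0.653, 1.04 and 0.938 CPM in EV libraries of batch 2. WT libraries were highest, at -1.09 ± 0.18 for MUT against WT (log2 ± SE, edgeR adjusted p = 0.000131). The MUT libraries of ISG15 all lay above its EV libraries, without passing the test.

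PARP9, a member of the same family as PARP14, had 19.6, 16.3 and 17.0 CPM in MUT libraries of batch 2, 35.9, 35 and 34.4 CPM in WT libraries and 28.9, 26.8 and 27.4 CPM in EV libraries. The groups did not overlap, with WT highest and MUT lowest, at -0.99 ± 0.06 for MUT against WT (log2 ± SE, edgeR adjusted p = 3.85e-09) and 0.34 ± 0.06 for WT against EV (edgeR adjusted p = 0.000319). IFI35, an interferon-induced protein with a leucine zipper, had 7.6, 9.65 and 9.13 CPM in MUT libraries, 15.4, 15.5 and 17.0 CPM in WT libraries and 18.2, 19.6 and 17.4 CPM in EV libraries of batch 2. Its MUT libraries were lowest and its EV libraries highest, at -0.85 ± 0.08 for MUT against WT (log2 ± SE, edgeR adjusted p = 5.88e-07) and -1.06 ± 0.08 for MUT against EV (edgeR adjusted p = 1.52e-08). It was the 1 interferon-stimulated gene lower in WT than in EV cells by the test, at -0.21 ± 0.08 (log2 ± SE, edgeR adjusted p = 0.0458).

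Of the other interferon-stimulated genes, IFIT2, IFIT3, STAT2, IRF2, IFIH1, ADAR and LGALS3BP were also lower in MUT than in WT cells of batch 2, with log2 fold changes from -1.96 for IFIT3 to -0.15 for STAT2. LGALS3BP, a secreted glycoprotein, was the most abundant of them, with 273, 306 and 282 CPM in MUT libraries, 555, 535 and 546 CPM in WT libraries and 419, 486 and 444 CPM in EV libraries. STAT2 and ADAR changed least among those called, and their MUT against EV calls in batch 2 were each lost without 1 of several libraries (edgeR adjusted p up to 0.107). That of ADAR was also lost with no filter on low counts (edgeR adjusted p = 0.0953) and from 1 fit of all libraries (edgeR adjusted p = 0.0800). SAMD9, USP18, XAF1 and EIF2AK2, which encodes the RNA-activated kinase PKR, did not pass the test for MUT against WT, at -0.06, 0.01, -0.49 and -0.12 on the log2 scale. For WT against EV, the calls of IFIT3, DDX60 and IFI35 were lost when 1 of several libraries was left out (edgeR adjusted p up to 0.159). They were also lost from 1 fit of all 29 libraries (edgeR adjusted p = 0.0559 for IFIT3, 0.0753 for DDX60 and 0.0629 for IFI35). DESeq2 called neither IFIT3 (adjusted p = 0.0599) nor IFI35 (adjusted p = 0.0914), and IFI35 was lost with DESeq2 size factors in edgeR (adjusted p = 0.0521) and without robust dispersion (edgeR adjusted p = 0.0653).

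Of the 11 interferon-stimulated genes under the threshold, IFI27 averaged 0.179 CPM in MUT, 2.06 CPM in WT and 0.0912 CPM in EV libraries of batch 2. UBE2L6, the conjugating enzyme of ISG15, averaged 0.0173 CPM in MUT, 1.09 CPM in WT and 0.158 CPM in EV libraries there, and BST2, which tethers budding viruses, averaged 0.00971 CPM in MUT, 0.481 CPM in WT and 0.0282 CPM in EV libraries. IRF7, which amplifies interferon production, averaged 0.312 CPM in MUT, 0.265 CPM in WT and 0.400 CPM in EV libraries of batch 2. IFI44L was lowest in WT libraries of batch 2, averaging 0.161 CPM in MUT, 0.0588 CPM in WT and 0.149 CPM in EV libraries. IFI44 was listed at 0 in all 29 libraries. In a library, 3 counts would be 0.0745 to 0.114 CPM. The MUT means of UBE2L6 and BST2, the EV mean of BST2 and the WT mean of IFI44L lie under that. These levels are given without a test.

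**Figure D2:**
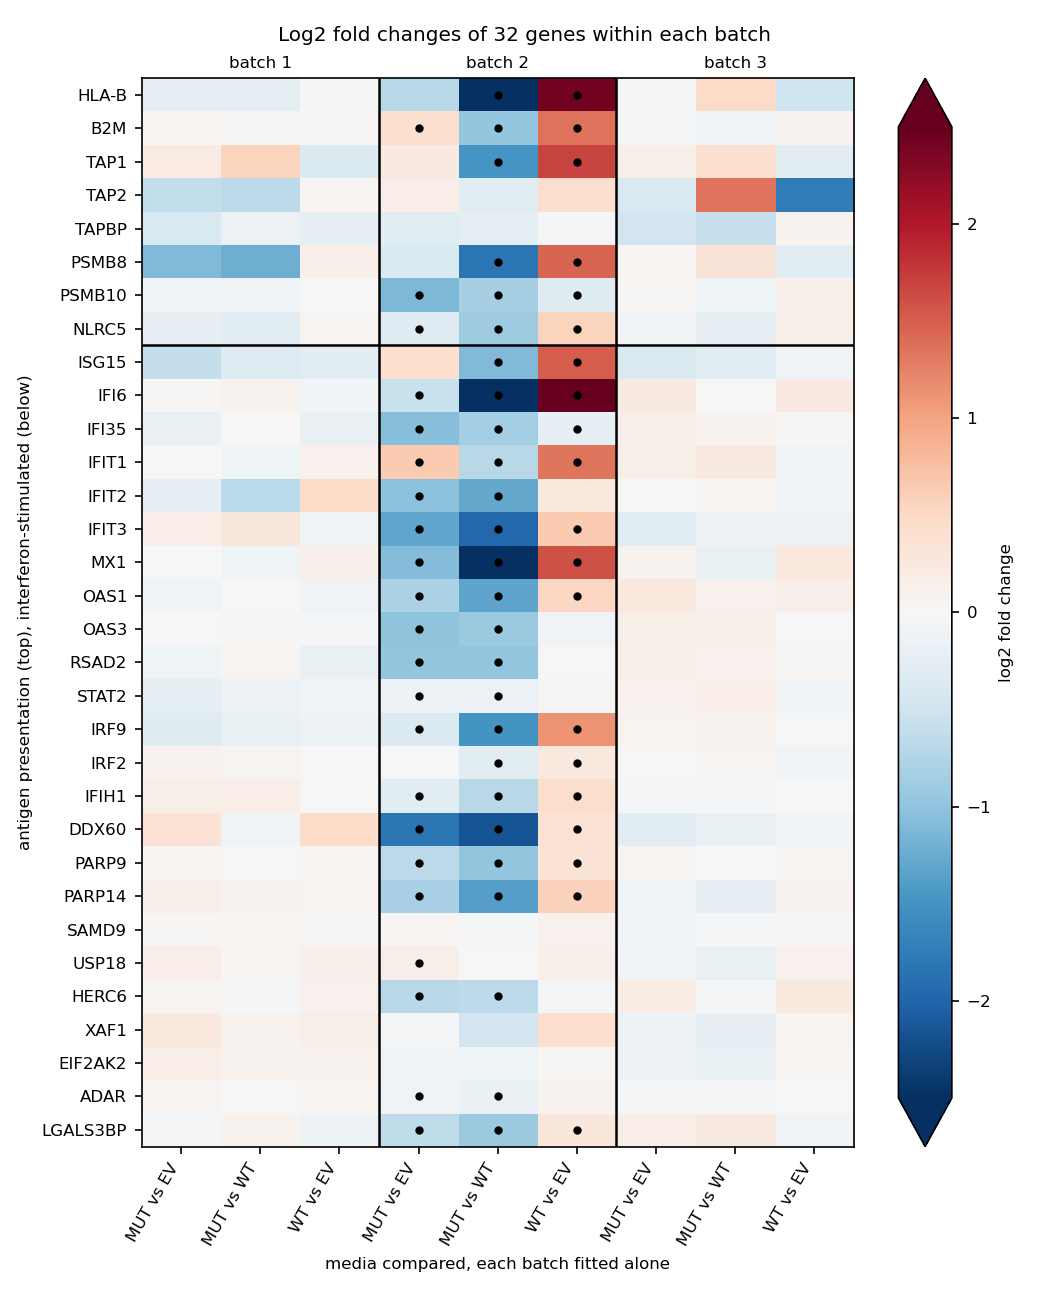
Log2 fold changes of the 32 genes for 3 comparisons of media in each batch fitted alone, colour-coded (red higher in the first medium named, capped at 2.5), with antigen presentation genes above the line and dots marking an adjusted p under 0.05. Dots are in batch 2 and in neither other batch: 22 between MUT and EV, 26 between MUT and WT and 20 between WT and EV.

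**Figure D3:**
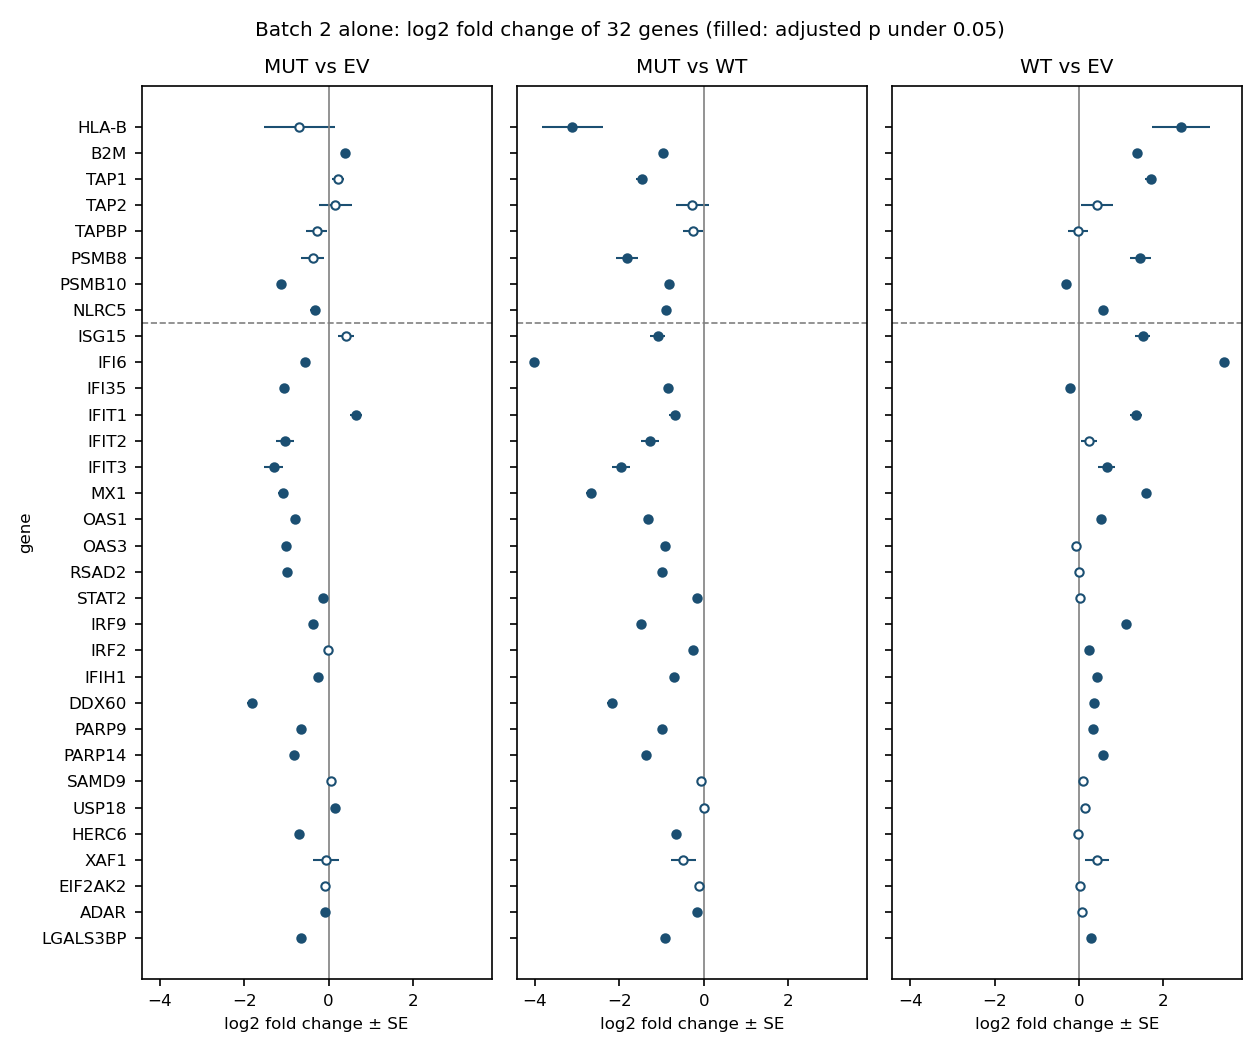
Log2 fold change ± SE in batch 2 for the 32 genes and 3 comparisons, filled where the adjusted p was under 0.05. For MUT vs WT the values run from -4.02 for IFI6 to 0.01 for USP18, and the antigen presentation genes are above the dashed line.

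Fitted over the 29 libraries together with a batch term, the 3 comparisons gave few calls among the 32 genes: 0 for MUT against EV, 1 for MUT against WT and 0 for WT against EV, where 5.2%, 0.884% and 0.315% of all genes were called. At an unadjusted p under 0.05 the numbers were 7, 17 and 9. DESeq2 called 3, 6 and 3. IFI6 was at -1.32 ± 0.47 for MUT against WT (log2 ± SE, edgeR adjusted p = 0.172), a value over 3 batches of which batch 2 alone showed a difference past the threshold.

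The 1 call was NLRC5, lower in MUT than in WT cells at -0.43 ± 0.08 (log2 ± SE, edgeR adjusted p = 0.00991). Its MUT libraries in batch 1 had 8.72, 9.67, 9.16 and 9.83 CPM, against 9.26, 12.3, 11.0 and 11.8 CPM in WT libraries. In batch 3 they had 4.20, 4.05 and 3.37 CPM, against 4.03, 4.67 and 4.70 CPM in WT libraries. The fitted differences were -0.26 ± 0.10 in batch 1, -0.89 ± 0.10 in batch 2 and -0.21 ± 0.13 in batch 3 (log2 ± SE), so the sign was the same in each batch and the size largest in batch 2. Without batch 2 the value was -0.23 and the call was lost (edgeR adjusted p = 0.12). It was also lost in the fits that treat the libraries of 1 batch and medium as correlated (limma adjusted p = 0.545) or as 1 summed profile, where 0 of the 32 genes were called.

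The medium effect differed between batches in 27 of the 32 genes, 6 of 8 antigen presentation and 21 of 24 interferon-stimulated, where 49.2% of all genes did (edgeR, interaction of medium and batch). The EV libraries also differed between batches in 27 of the 32, 5 of 8 and 22 of 24, where 68.3% of all 20851 genes did. EV levels of OAS1 were 1.23 ± 0.08 higher on the log2 scale in batch 2 than in batch 1 (edgeR adjusted p = 1.79e-10), and those of DDX60 1.54 ± 0.14 higher (edgeR adjusted p = 2.11e-08), while NLRC5 was lower, with a log2 difference of -1.11 ± 0.11 (edgeR adjusted p = 5.77e-08). PSMB10 in EV cells was 1.34 ± 0.11 higher in batch 2 (edgeR adjusted p = 3.28e-09). Batch 3 against batch 2 gave 19 interferon-stimulated and 4 antigen presentation genes lower and 2 and 0 higher in EV cells, where 20.4% of all genes were lower and 20.4% higher. Batch 2 against batch 1 gave 13 interferon-stimulated and 3 antigen presentation genes higher and 4 and 1 lower in EV cells, where 30.7% of all genes were higher and 28.6% lower.

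The genes upstream were described from lists chosen in the same way. Of 9 interferon genes (IFNB1, IFNA1, IFNA2, IFNE, IFNK, IFNG, IFNL1, IFNL2 and IFNL3), 7 were listed at 0 in all 29 libraries, IFNB1 had counts in 2 libraries and IFNE in 1, at most 0.0297 CPM. These are levels in EndoC-βH1 cells. The HEK293 cells that conditioned the media are not among the libraries, so interferon in the medium was not measured. Receptor and kinase genes were all expressed, and in batch 2 1 of 9 was higher and 3 were lower in MUT than in WT cells, where 16.8% of all genes were higher and 16.4% lower. A list of 9 genes is too short to set these counts apart from those shares. IFNGR2, a chain of the interferon gamma receptor, averaged 30.5 ± 6.1 CPM in MUT and 51.7 ± 3.2 CPM in WT libraries of batch 2 (SD, n = 3 each), a log2 fold change of -0.76 ± 0.17 (edgeR adjusted p = 0.014). That was the lowest log2 fold change of the 9, while another gene had the smallest edgeR adjusted p (0.0014). For WT against EV in batch 2 the 9 genes, IFNGR2 among them, lay between -0.09 and 0.22 on the log2 scale. There 4 were higher and 0 lower (all genes, 19.6% and 19.3%).

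Among 6 tested transducers and feedback genes, 2 were higher and 3 lower in MUT than in WT cells of batch 2 (all genes, 16.8% higher and 16.4% lower). IRF1, which drives interferon gamma targets, was lower by the test at -0.44 ± 0.06 (log2 ± SE, edgeR adjusted p = 4.5e-05). For WT against EV in batch 2, 0 of these 6 were higher and 1 lower (all genes, 19.6% and 19.3%). Their highest log2 fold change there was 0.07. Of 6 nucleic acid sensing genes tested, 5 were lower in MUT than in WT cells of batch 2, where 16.4% of all genes were. The lowest was DHX58, which encodes LGP2, at -1.06 ± 0.17 (log2 ± SE, edgeR adjusted p = 0.00012). IKBKE, a kinase that activates IRF3, followed at -0.79 ± 0.08 (log2 ± SE, edgeR adjusted p = 4.9e-07). For WT against EV in batch 2, 3 of the 6 sensing genes were higher and 0 lower (all genes, 19.6% and 19.3%). Their log2 fold changes there ran from -0.03 to 0.45.

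Of 11 further peptide loading and proteasome genes, 0 were higher and 5 lower in MUT than in WT cells of batch 2 (all genes, 16.8% higher and 16.4% lower), and the median log2 fold change of the 11 was -0.03. TAPBPL, a peptide editor related to tapasin, was at -0.63 ± 0.07 (edgeR adjusted p = 2.9e-06), and the trimming peptidase ERAP1 was at -0.50 ± 0.05 (edgeR adjusted p = 2e-06), both log2 ± SE. The constitutive proteasome subunits PSMB5, PSMB6 and PSMB7 did not pass the test in that comparison. For WT against EV in batch 2, 3 of the 11 were higher and 3 lower (all genes, 19.6% and 19.3%). Their log2 fold changes there ran from -0.23 to 0.26. Of class II genes, CD74, the invariant chain, averaged 178 ± 12 CPM in MUT, 316 ± 9.0 CPM in WT and 182 ± 8.9 CPM in EV libraries of batch 2 (SD, n = 3 each), while HLA-DRA and HLA-DPA1 were listed at 0 in all libraries.

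Other markers moved in batch 2 too. The summed level of 10 β-cell markers was 18990 to 20123 CPM in MUT, 23771 to 24733 CPM in WT and 23285 to 25464 CPM in EV libraries of batch 2, most of it INS and CHGA. Of the 10, 1 was higher and 7 lower in MUT than in WT cells, where 16.8% of all genes were higher and 16.4% lower. WT and EV cells differed too, though their sums overlapped: 8 were higher and 1 lower in WT cells (all genes, 19.6% and 19.3%). Against EV cells, 3 were higher and 6 lower in MUT cells (all genes, 24.1% and 23.8%). The summed level of the 7 leukocyte markers was 37.6 to 39.8 CPM in MUT, 60.8 to 64.6 CPM in WT and 128 to 137 CPM in EV libraries of batch 2, nearly all of it CD68, a lysosomal protein that other cells also make. The 4 endothelial markers summed to at most 0.174 CPM there and the 4 fibroblast markers to 5.66 to 6.28 CPM in MUT, 5.21 to 6.47 CPM in WT and 1.90 to 2.44 CPM in EV libraries. The part of these differences in the results was not tested.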

How the data were processed

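The members and gene lists were chosen with earlier results of these data known. Deposited values are estimated counts by Ensembl gene, not normalized, in 1 column per library. Reads were processed with fastp and kallisto, per the submitters' processing notes; versions, build and annotation are not given in the sources used. Rows were matched to symbols by identifier (59369 of 66025).

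Counts were rounded and tested with edgeR 4.0.16 (R 4.3.3, limma 3.58.1): filterByExpr, TMM, a robust quasi-likelihood fit with batch and medium over 29 libraries, and each batch fitted alone with the filter repeated. The interaction of medium and batch and the batch differences within EV were tested likewise. P-values were Benjamini-Hochberg adjusted over all genes, with a threshold of 0.05, and a standard error is the log2 fold change divided by the square root of F. CPM values are scaled by TMM; the 0.5 CPM rule used totals. Any of the 32 genes could be named; full values went to the 6 antigen presentation and 10 interferon-stimulated genes with the smallest adjusted p in a comparison, and RSAD2, HERC6, IFIT1 and ISG15 were added after their values were seen. Scripts were tested on simulated data. Alternatives are in the closing section. Figures used matplotlib 3.10.9. Kallisto shares reads between similar transcripts, so near-identical copies are uncertain. A gene of the transducer list is not reported here.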

Additional observations from a re-analysis of the deposited data

Results flagged for a closer look

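Of 160 groups of libraries examined, 7 held a library far from the others, where chance gives about 1 in 20 among like libraries. The groups of a gene were each medium over all 3 batches, and MUT and WT in batch 1. Levels differ between batches, so that rate need not hold for groups over all batches. HLA-B had 1.18 CPM in MUT library 2 of batch 3 and 8.99 CPM in WT library 3 of batch 2, both flagged in groups over all batches. It had 0.476 CPM in MUT library 1 of batch 1, flagged within that batch. In WT cells of batch 1, OAS3 had 60.5 CPM in library 2, IFIH1 13.5 CPM in library 1, USP18 26.6 CPM in library 1 and EIF2AK2 76.3 CPM in library 2.

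The medium effect differed between batches by the interaction test in 27 genes (edgeR adjusted p). Among antigen presentation genes the p was 2.78e-15 for B2M, 2.55e-07 for TAP1, 3.59e-06 for PSMB10, 0.000724 for HLA-B, 0.00181 for NLRC5 and 0.0396 for PSMB8. Among interferon-stimulated genes it was smallest for IFI6 (6.33e-29), OAS3 (6.17e-13), OAS1 (1.69e-12), MX1 (7.97e-12) and PARP14 (8.62e-12). It was 8.15e-10 for IRF9, 1.29e-09 for PARP9, 1.74e-09 for LGALS3BP, 1.19e-08 for DDX60, 2.35e-08 for IFI35, 1.31e-07 for RSAD2, 1.46e-07 for HERC6, 1.85e-07 for IFIH1 and 2.11e-06 for IFIT1. It was 0.000323 for STAT2, 0.000412 for IRF2, 0.00051 for ISG15, 0.000708 for IFIT3, 0.00804 for EIF2AK2, 0.0187 for ADAR and 0.0447 for IFIT2.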

How the results depend on the processing

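In batch 2 the counts of called genes stayed within 1.5 times under every alternative run (20 to 24 for MUT against EV, 25 to 28 for MUT against WT, 16 to 23 for WT against EV), as did the interaction (23 to 27) and the EV batches (26 to 27). Of 1224 values of single genes in batch 2, 0 reversed and 52 lost the call, in 10 gene results. The counts over all batches were small and moved; the cause was not tested. MUT against EV (0) gave 1 with a stricter filter or GC and length offsets, 3 with DESeq2, 2 without batch 1 and 7 without batch 3. MUT against WT (1) gave 0 with no batch term, without batch 2, with correlated libraries or with summed profiles, 2 without robust dispersion (added after seeing the data) or with voom weights, 3 with GC and length offsets or without batch 1, 6 with DESeq2 and 8 without batch 3. WT against EV (0) gave 3 with DESeq2 and 1 with only the 2 media or without batch 3. In batch 1, MUT against EV (0) gave 1 with no filter, a stricter filter or DESeq2 and 2 from 1 fit of all 29 libraries, and MUT against WT (0) gave 1 with no filter and 3 with offsets. In batch 3, MUT against EV (0) gave 1 with no filter, DESeq2 or 1 fit of all libraries, and MUT against WT (0) gave 1 with no filter and 2 with DESeq2. MUT against EV over all batches gave 1 without EV library 3, MUT library 1 or MUT library 4 of batch 1 or EV library 1 or 2 of batch 3, and 2 without EV library 3 or MUT library 2 or 3 of batch 3. MUT against WT gave 2 without MUT library 4 of batch 1 or WT library 2 of batch 3 and 3 without MUT library 1 or 3 of batch 3. MUT against EV gave 1 without MUT library 1 and 2 without MUT library 4 in batch 1, and 2 without WT library 1 in batch 3, where MUT against WT gave 1 without WT library 1 or 3. Leaving out 1 library gave in all 0 to 2 for MUT against EV, 1 to 3 for MUT against WT, 0 for WT against EV, 0 to 2 for MUT against EV in batches 1 and 3 and 0 to 1 for MUT against WT in batch 3. Summing HLA rows by symbol could not be run, since each symbol matched 1 row. Same-numbered libraries did not deviate together (28 pairs, r from -0.058 to 0.089), and a block of replicate numbers gave 22, 26 and 19 calls in batch 2 and 0, 1 and 0 over all batches. Genes of a few CPM or less (HLA-B, ISG15, IFIT2 and IFIT3) rest on few counts.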
